A study of Mus musculus with 6 samples.

Results

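The colony-stimulating factor genes comprise 4 ligands (Csf1, Il34, Csf2 and Csf3) and 4 receptor genes (Csf1r, Csf2ra, Csf2rb and Csf3r), and these 8 genes were taken by name from a deposited table of 40202 genes. Normalised reads were above 0 for 6 of them, each with a mean of at least 10 over the libraries. Csf1 and Csf2 were listed at 0 in all 6 libraries. The table came from RNA sequencing of BV2 cells, an immortalised mouse microglial line with a C57BL/6 strain background. A group of 3 samples was untreated and labelled as the control for FL-ApoE4, and a group of 3 was incubated with human full-length apolipoprotein E4 (FL-ApoE4) at 25 µg/ml for 5 h. All samples are of 1 cell line, and the labels do not say whether untreated cells received the protein's vehicle or whether replicates were separate cultures. The p-values below therefore describe the spread among these particular samples, part or all of which may be technical.

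Colony-stimulating factors are secreted proteins that keep myeloid cells alive and drive their growth and differentiation. CSF1 and interleukin-34 both bind CSF1R, a receptor tyrosine kinase on which microglia depend for survival, and in the brain interleukin-34 comes largely from neurons. CSF2 (GM-CSF) binds an alpha chain, CSF2RA, which pairs with the beta chain CSF2RB to signal through JAK2 and STAT5, whereas CSF3 (G-CSF) acts on CSF3R, best known from neutrophils, through JAK kinases and STAT3.

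Libraries held 45700128 to 54965393 reads assigned to genes. Control replicate 1 and FL-ApoE4 replicate 1 each stood apart from the other libraries of their group. The median absolute log2 difference per gene was 0.137 and 0.146 between control replicate 1 and the other controls, against 0.057 between control replicates 2 and 3. With FL-ApoE4 it was 0.113 and 0.114 for the pairs with replicate 1 and 0.054 for replicates 2 and 3. Of 12 microglial markers, P2ry12, P2ry13, Sall1 and Gpr34 were listed at 0 in every library. Trem2 and Itgam, which microglia share with other macrophages, were at 5623 normalised reads or more. B2m, which nearly all cells express, was also listed at 0, so a 0 in this table says nothing about whether a gene was expressed.

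With FL-ApoE4, 3 receptor transcripts were higher in every treated library than in any control, and 1 ligand transcript was lower. Csf3r was at 133% of its control mean, Csf1r at 117% and Csf2ra at 111%. Csf3, in controls the more abundant of the measured ligands, was at 14.9% of a control mean that control replicate 1 had raised. Csf2rb and Il34 overlapped between the groups. None of the 6 measured members passed the threshold in the test across all genes (limma with Benjamini-Hochberg adjustment, adjusted p under 0.05), where 0% of 14079 genes passed. At an unadjusted limma p under 0.05 were 3 members on the higher side (6.81% of all genes) and 1 on the lower side (6.33% of all genes). The same 4 genes had groups that did not overlap, which held for 11.1% of all genes on the higher side and 10.9% on the lower side. In bulk RNA a change in the number of expressing cells and a change in RNA per cell cannot be told apart.

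**Figure D1:**
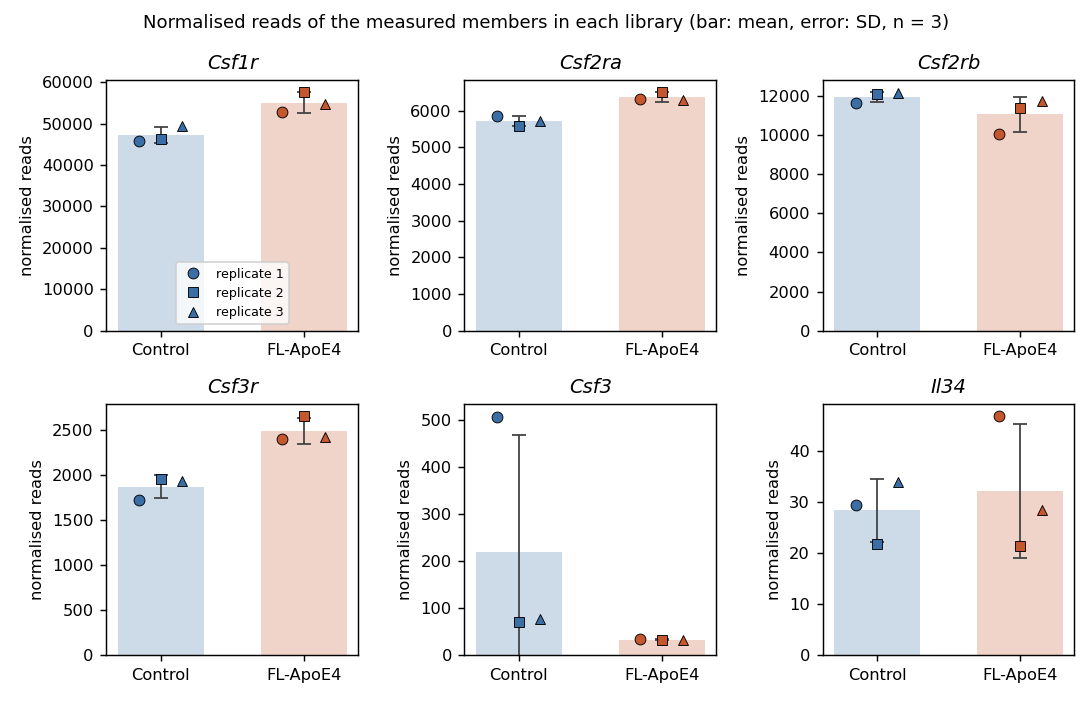
Normalised reads (y axis, from 0) of the 6 measured members in each library, by group on the x axis; marker shapes are replicates, bars group means and error bars SD (n = 3, the Csf3 control bar's lower end is off the axis). All 3 treated libraries lie above all controls for Csf1r, Csf2ra and Csf3r, and below them for Csf3, where control replicate 1 is at 507.

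Leaving out control replicate 1 gave 2 called members by limma, Csf3r on the higher side, where 2.93% of all genes were called, and Csf3 on the lower side, where 1.69% were. This fit rests on control replicates 2 and 3, the most alike controls, so its p-values may be too small. In the authors' deposited table, which covers all 6 libraries, 2 members were higher at an adjusted p under 0.05, Csf3r and Csf1r, against 1.51% of the genes with an adjusted p. No member was lower there, against 1.33%. On the recovered reads the edgeR quasi-likelihood test called 0 members with all libraries (0% of genes) and Csf3 and Csf3r without control replicate 1 (4.91% of genes). DESeq2 called Csf1r and Csf3r with all libraries (3.21% of genes), and Csf1r, Csf2ra, Csf3 and Csf3r without control replicate 1 (7.54%). Limma with a quality weight for each library called the same 4 members as that last fit (11.0% of genes), and limma on values adjusted for transcript length and base composition called 0 members (0.177% of genes).

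Among the measured ligands, Csf3 carried the larger difference. It was at 507, 70.2 and 77.3 normalised reads in control replicates 1 to 3 and at 33.5, 31.5 and 32.3 in FL-ApoE4 replicates 1 to 3. Control replicate 1 was 6.88 times the mean of the other controls, and every treated library lay below the lowest control. The log2 fold change over all libraries was -2.08 ± 0.69 (SE; limma adjusted p = 0.267), and leaving out control replicate 1 left a fall by 1.16 ± 0.18 (limma adjusted p = 0.0107), a 2.23-fold lower level. Exact permutation of the 6 libraries gave p = 0.1, the smallest that 3 against 3 allows.

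The Csf3 values rest on few reads. Treated libraries held 30, 34 and 33 reads of it and control replicates 2 and 3 held 74 and 82, so that exact 95% Poisson intervals, which cover counting error only, reached from 21.8 to 47.8 normalised reads over the treated libraries and from 55.1 to 95.9 over those controls. These intervals did not overlap. The spread of the treated libraries (SD 0.979) was smaller than the 5.71 that counting error alone gives on average, so the agreement between them was closer than their depth supports.

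Il34, the neuronal ligand of CSF1R, was near the lower limit of measurement. It was at 29.3, 21.8 and 33.9 normalised reads in the controls and at 46.9, 21.3 and 28.4 with FL-ApoE4, from 23 to 42 reads per library. The groups overlapped, with FL-ApoE4 replicate 1 the highest and FL-ApoE4 replicate 2 the lowest of all 6. Its log2 difference was 0.13 with a 95% interval of -0.62 to 0.88 (limma adjusted p = 0.921), so differences of that size in either direction were not detectable at this depth. The sign turned negative without control replicate 2 (-0.04) or FL-ApoE4 replicate 1 (-0.17). Csf1, the other CSF1R ligand, and Csf2, the ligand of the CSF2RA and CSF2RB pair, were listed at 0 throughout and give no comparison.

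Csf3r, the receptor of the G-CSF protein that Csf3 encodes, had the lowest p of the members and ranked 74 of 14079 genes. The controls were at 1727, 1962 and 1932 normalised reads and the treated libraries at 2399, 2660 and 2423. Its lowest treated value lay above its highest control. The log2 fold change was 0.41 ± 0.07 (95% interval 0.24 to 0.58, limma adjusted p = 0.112), and without control replicate 1, the lowest library, Csf3r rose by 0.36 ± 0.06 (adjusted p = 0.0171). The authors' deposited table gives a log2 fold change of 0.41 with an adjusted p of 0.000601.

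Csf3r is also a gene of neutrophils, and markers of that cell type were measured beside it. Of 10 neutrophil markers, Ly6g, S100a9 and Retnlg were listed at 0 in every library, and 1 reached the minimum mean of 10. Summed, they reached 62.2 to 65.2 normalised reads in control libraries and 60.3 to 70.3 in treated ones, so the groups overlapped in this sum. All samples are of 1 cell line, and whether cells of another type had a part in the Csf3r difference was not tested. A value of 0 here says only that a gene is listed at 0.

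Of the receptor members, the start region of Csf1r is not reported here and Csf2rb had no promoter entry. The start regions of Csf3r and Csf2ra are shown, and both hold matches to a myeloid transcription factor motif. They are RefSeq promoters of build GRCm38.p6, from 250 bases before to 50 after the annotated start, 5′ to 3′ on the gene's strand; the deposited counts used GRCm39, so these coordinates do not apply to them. Csf3r lies at chr4:126024409-126024708 on the plus strand and Csf2ra at chr19:61228369-61228668 on the minus strand. Capitals mark the matches to the motifs named next.
Csf3r: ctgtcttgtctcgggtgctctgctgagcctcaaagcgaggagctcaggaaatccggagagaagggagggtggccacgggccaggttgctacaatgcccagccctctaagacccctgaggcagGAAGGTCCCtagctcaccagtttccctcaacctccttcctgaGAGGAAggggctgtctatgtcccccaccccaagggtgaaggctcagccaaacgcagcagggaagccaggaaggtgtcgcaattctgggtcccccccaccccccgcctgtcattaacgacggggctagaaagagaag
Csf2ra: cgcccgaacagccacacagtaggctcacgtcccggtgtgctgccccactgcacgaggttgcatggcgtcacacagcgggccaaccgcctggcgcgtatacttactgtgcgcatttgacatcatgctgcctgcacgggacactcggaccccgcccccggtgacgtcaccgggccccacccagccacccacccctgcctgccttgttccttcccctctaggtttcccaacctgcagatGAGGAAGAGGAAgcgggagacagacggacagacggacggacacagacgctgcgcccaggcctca
Both strands were searched for GAGGAA (the core of sites bound by PU.1), GGGANNTTC (kappaB type), TGANTCA (AP-1 type) and TTGCNNAA (C/EBP type). Csf3r held 1 GAGGAA, at bases 165 to 170 of the window, and 1 kappaB type match on the reverse strand, at bases 123 to 131. Csf2ra held GAGGAA at bases 237 to 242 and again at bases 243 to 248, next to each other without overlap. Csf2rb2, whose groups did not overlap on the lower side, also held 2 GAGGAA matches. Of 32851 RefSeq promoters of the same length, 28.3% held GAGGAA, 3.94% GGGANNTTC, 7.81% TGANTCA and 10.8% TTGCNNAA. A match describes the letters of the window and is not evidence of binding. Spi1, which encodes PU.1, averaged 18350 ± 4054 normalised reads without treatment and 20859 ± 1456 with FL-ApoE4 (mean ± SD, n = 3 each), a log2 difference of 0.20 ± 0.14 (SE; limma adjusted p = 0.592). Without control replicate 1 it rose by 0.38 (adjusted p = 0.0124).

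Csf1r, the receptor for CSF1 and interleukin-34, was the most abundant of the measured members. It was at 45849, 46332 and 49399 normalised reads in the controls and at 52745, 57740 and 54830 with FL-ApoE4. The groups did not overlap, and the gap between the highest control and the lowest treated library was smaller than the range within the treated group. The log2 fold change was 0.22 ± 0.05 (95% interval 0.10 to 0.35, limma adjusted p = 0.189). Without control replicate 1 the value was 0.20 (adjusted p = 0.0827), and in the authors' deposited table it is 0.22 with an adjusted p of 0.0443. The call therefore depends on the test used, while the value stayed between 0.19 and 0.26 in all 22 alternatives.

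The chains of the CSF2 receptor had differences of opposite sign, neither of them called by limma over all 6 libraries. Csf2ra, the ligand-binding alpha chain, was at 5867, 5583 and 5714 normalised reads in the controls and at 6317, 6520 and 6292 with FL-ApoE4. Its groups did not overlap (log2 fold change 0.16 ± 0.05, 95% interval 0.05 to 0.26, limma adjusted p = 0.232), and it was called with library quality weights (limma adjusted p = 0.0123) and by DESeq2 without control replicate 1 (adjusted p = 0.0356). Adjusting for transcript length and base composition gave 0.10.

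Csf2rb, the signalling beta chain that the interleukin-3 and interleukin-5 receptors also use, was at 11677, 12096 and 12152 in the controls and at 10044, 11398 and 11778 with FL-ApoE4. FL-ApoE4 replicate 1 was the lowest library, and FL-ApoE4 replicate 3 lay above control replicate 1. The log2 difference was -0.12 ± 0.07 (95% interval -0.27 to 0.04, limma adjusted p = 0.513), and -0.05 without FL-ApoE4 replicate 1. Csf2rb2, its neighbouring copy, which encodes a mouse beta chain specific to interleukin-3, was at 8135, 8195 and 8023 in the controls and at 6571, 7546 and 8013 with FL-ApoE4, with a log2 difference of -0.14 ± 0.07 (adjusted p = 0.468). Csf2rb and Csf2rb2 are near copies: 10.7% of all 75-base stretches of the longest Csf2rb transcript occur in Csf2rb2 transcripts. How reads that match both genes were counted is not given. The separate counts are therefore uncertain, and this share does not measure by how much.

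The balance of the chains was read within each library as log2 of Csf2ra minus log2 of Csf2rb, a measure chosen after the values were seen. It was -0.99, -1.12 and -1.09 in the controls and -0.67, -0.81 and -0.90 with FL-ApoE4. All treated libraries lay above all controls, by 0.27 on average. The exact two-sided permutation p was 0.1, the smallest possible with 3 against 3, and 0.167 after Benjamini-Hochberg adjustment over the 5 receptor ratios computed. The ratio of Csf2rb2 to Csf2rb differed by -0.03 between the groups (exact p = 0.5). Csf3r stood 0.26 higher relative to Csf2ra and Csf1r 0.19 lower relative to Csf3r in the treated group on the log2 scale, each at the same smallest p, while the ratio of Csf1r to Csf2ra differed by 0.07 (exact p = 0.2). All 5 ratios were chosen after the values were seen. Those with Csf3r share a gene already seen to rise the most, so they are not separate observations.

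**Figure D2:**
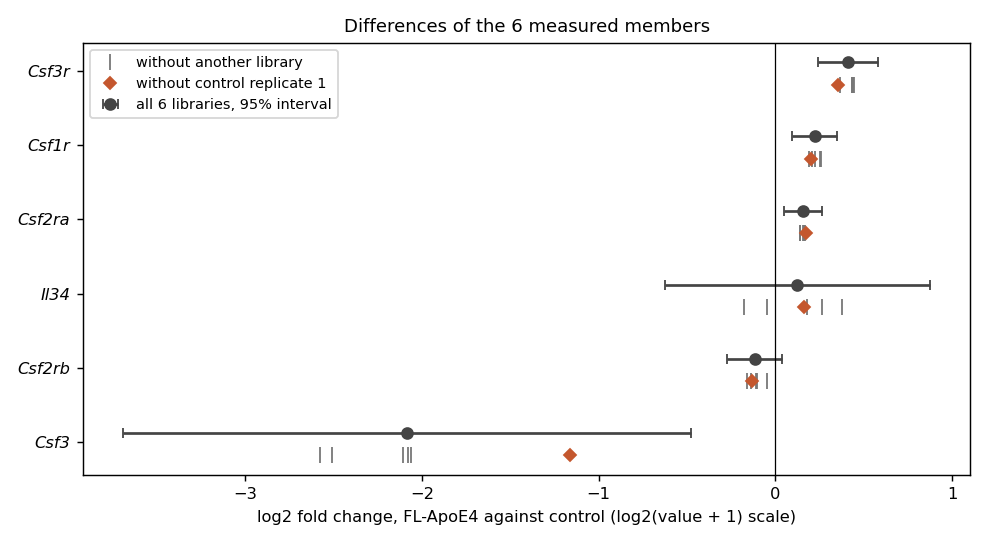
Log2 fold change of FL-ApoE4 against control (x axis, on the log2(value + 1) scale) for the 6 measured members; circles with bars are all 6 libraries with the 95% interval, diamonds the value without control replicate 1 and ticks the values without each other library. Csf3 moves from -2.08 to -1.16 without control replicate 1, and Il34 is the gene whose ticks lie on both sides of 0.

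Levels of different genes were compared as normalised reads per kb of the longest annotated transcript. In controls Csf1r was highest at 10039 ± 410 per kb (mean ± SD, n = 3), followed by Csf2ra at 2513 ± 62.4, Csf2rb at 2444 ± 53.0 and Csf3r at 538 ± 36.8. The ligands came last, with Csf3 at 154 ± 177 and Il34 at 15.8 ± 3.40 per kb. Csf2ra and Csf2rb did not differ beyond the spread of the controls, and with the median transcript length in place of the longest their order was reversed, at 5779 and 9657 per kb. With FL-ApoE4 the level per kb was 11722 ± 534 for Csf1r, 2800 ± 54.9 for Csf2ra, 2260 ± 186 for Csf2rb and 716 ± 41.4 for Csf3r, so that Csf1r stood 4.19 times above Csf2ra. Csf3, at 23.0 ± 0.693 per kb, then overlapped with Il34 at 17.9 ± 7.34. Per kb, Csf3r exceeded Csf3 by 3.49 times in controls, by 10.7 times in controls without control replicate 1 and by 31.2 times with FL-ApoE4. By the median transcript length these ratios were 5.95, 18.3 and 53.3.

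**Figure D3:**
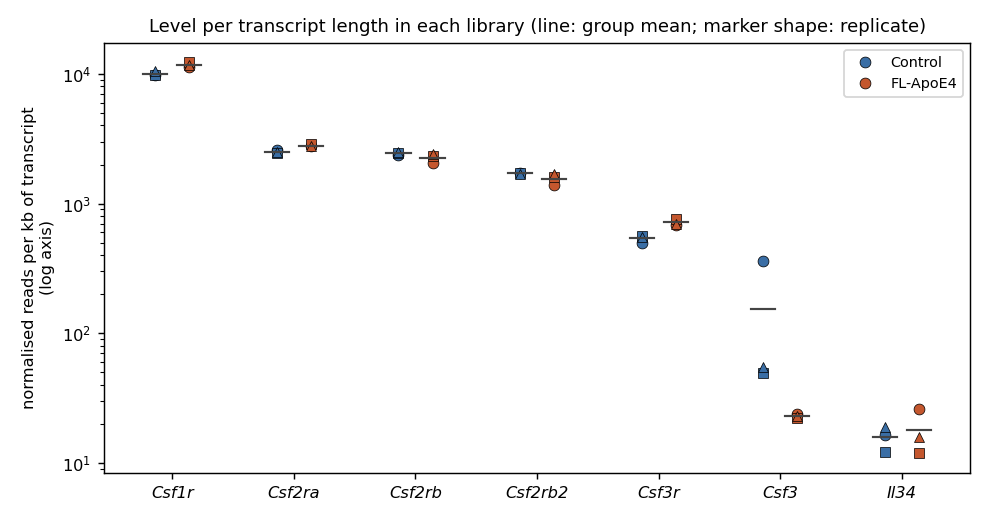
Normalised reads per kb of the longest transcript (log axis) in each library for the 6 measured members and Csf2rb2; marker shapes are replicates and lines group means. Receptors span 538 to 10039 per kb in the control means, and the ligands Csf3 and Il34 lie below them.

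The genes whose profile over the 6 libraries was most like that of each member were found by the root mean square difference between log2 values centred on each gene's mean, among genes that varied at least as much. For Csf3 these were Ptgs2, the inducible prostaglandin synthase (0.18), Cxcl2, a neutrophil-attracting chemokine (0.28), and Il27, an interleukin-12 family subunit (0.31), out of 15 genes with as large a range. Ptgs2 was at 11741, 1915 and 1745 normalised reads in the controls and 829, 721 and 1059 with FL-ApoE4, so it too was far higher in control replicate 1. For Csf1r the 3 nearest of 7376 genes were Dglucy (0.02), Zfp316 (0.03) and Npas2, a circadian transcription factor (0.03). Csf2ra was nearest to Cd48, a surface protein of leukocytes (0.01), Atxn7l1 (0.02) and Ncf4, a subunit of the phagocyte NADPH oxidase (0.03). Csf3r was nearest to Gm13778 (0.03), Ccdc62 (0.04) and Zfp710 (0.04), and Csf2rb to Pum2, an RNA-binding repressor (0.01), Ap4e1 (0.02) and Ttc14 (0.02). Il34, at its few reads, had no gene nearer than 0.15 (Gm46363), followed by Gm43653 (0.17) and Gm9530 (0.18). These likenesses rest on 6 libraries and are descriptions only.

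The adaptors, kinases and phosphatases that act downstream of CSF1R lay mostly on the higher side. Of 29 listed genes 27 were tested, 22 had a positive log2 difference, and 7 were higher and 0 lower at an unadjusted limma p under 0.05, with 0 called, where 6.81% of all genes were higher and 6.33% lower at that p. The median was 0.06, and 0.14 without control replicate 1, against 0.00 over all genes in both fits. Ptpn6, the phosphatase SHP-1, was at 11918, 13162 and 13854 normalised reads in the controls and 17305, 17524 and 16288 with FL-ApoE4, and without control replicate 1 it rose by 0.33 (limma adjusted p = 0.00961). The Src family kinase Lyn rose in the same fit by 0.42 (adjusted p = 0.00357). The adaptor Grb2 had a log2 difference of 0.22 ± 0.05 over all libraries (adjusted p = 0.171). Pik3ap1, Syk and Adam17, the protease that sheds CSF1R, were also called higher without control replicate 1, and the list then had 6 called higher and 0 lower among the 27, against 2.93% and 1.69% of all genes. These 4 shares are the background for the same counts of the lists that follow. Tyrobp, the adaptor DAP12, differed by 0.06 ± 0.05. Over all libraries Pik3ap1, Syk and Adam17 had log2 differences of 0.13, 0.15 and 0.10. For Syk the SE was 0.21, and control replicate 1, at 16863 normalised reads, was the highest of the 6 libraries.

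For CSF2 and CSF3 receptor signalling the directions were mixed. Of 18 genes tested, 3 were higher and 3 lower at an unadjusted limma p under 0.05, with 0 called and a median of 0.03 (0.01 without control replicate 1). The higher ones were Fes, Lyn and Ptpn6, which are also in the CSF1R list and were counted there too. Without control replicate 1 the kinase gene Tyk2, Lyn and Ptpn6 rose, and Cish, Socs3 and Pim1, which cytokine receptors induce through STAT proteins, fell. Cish was at 420, 156 and 148 normalised reads in the controls and 95.9, 85.3 and 103 with FL-ApoE4, and in the fit lacking control replicate 1 fell by 0.68 (adjusted p = 0.0297). Pim1, a survival kinase, fell by 0.69 in that fit (adjusted p = 0.0175), and Socs3, an inhibitor of CSF3R signalling, by 0.32 (adjusted p = 0.0418). Cish, Pim1 and Socs3 were high in control replicate 1, as Csf3 was. Socs3 was at 5331, 2049 and 1972 normalised reads in the controls and 1664, 1691 and 1483 with FL-ApoE4, and its log2 difference over all libraries was -0.79 (adjusted p = 0.398). Fes, a tyrosine kinase of myeloid cells, differed by 0.31 ± 0.09 over all libraries (adjusted p = 0.223). The transducers themselves had log2 differences of -0.06 ± 0.21 for Jak2, 0.05 ± 0.08 for Stat5a, 0.04 ± 0.09 for Stat5b and -0.04 ± 0.07 for Stat3.

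Among transcription factors known to act on Csf1r, 13 were tested, 6 were higher and 3 lower at an unadjusted p under 0.05, with 0 called and a median of 0.23 (0.15 without control replicate 1). Irf8, Maf and Runx1 had log2 differences of 0.48 ± 0.12, 0.80 ± 0.20 and 0.23 ± 0.06 (limma adjusted p = 0.2, 0.198 and 0.19). Ets2 was lower, at 4817, 2883 and 2919 normalised reads in the controls and 1864, 1871 and 2127 with FL-ApoE4. Without control replicate 1, 5 of the 13 rose, Spi1, Runx1, Irf8 and Maf among them, and Ets2 fell, by 0.57 (adjusted p = 0.00346).

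Regulators of the ligand genes and of their mRNA decay, which include NF-kB and AP-1 subunits and RNA-binding proteins, lay on the lower side. Of 19 tested, 1 was higher and 10 lower at an unadjusted p under 0.05, with 0 called and a median of -0.33. Nfkbiz, an atypical IkB protein, had a log2 difference of -1.47 ± 0.25, Junb -0.60 ± 0.11, Fosl2 -0.54 ± 0.10 and the NF-kB subunit Rel -0.50 ± 0.12. Without control replicate 1 the median was -0.16, and 8 members fell and 2, Nfkb1 and Nfatc2, rose, against 1.69% and 2.93% of all genes. The log2 difference of Nfkb1 was -0.07 over all libraries and 0.26 in that fit, so its sign depends on control replicate 1. Nfatc2 was positive in both fits, at 0.78 and 0.40. Zfp36, which promotes decay of cytokine mRNAs, was listed at 0.

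Of 15 tested genes induced by CSF1 in macrophages, 3 had a positive log2 difference, and 1 was higher and 4 lower at an unadjusted p under 0.05, with 0 called and a median of -0.08 (-0.03 without control replicate 1). Dusp1, Dusp5 and Plau had log2 differences of -0.55 ± 0.12, -0.51 ± 0.12 and -0.24 ± 0.08, and the cyclin gene Ccnd1 one of 0.57 ± 0.18. Without control replicate 1, Ccnd1 and Ccl2 rose and Dusp5 fell. The log2 difference of Ccl2 was -0.03 over all libraries and 0.51 in that fit, so its sign too depends on control replicate 1. Of 10 tested genes induced by CSF2 in myeloid cells, 5 had a positive log2 difference, and 0 were higher and 2 lower at an unadjusted p under 0.05, with 0 called and a median of 0.01 (-0.00023 without control replicate 1). These were Cish and Pim1, which fell without control replicate 1, whereas Socs2 and Irf4 had log2 differences of 0.19 ± 0.08 and 0.25 ± 0.16. Cish, Pim1 and Socs2 are also in the list for CSF2 and CSF3 receptor signalling, so these counts are not separate from those above.

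**Figure D4:**
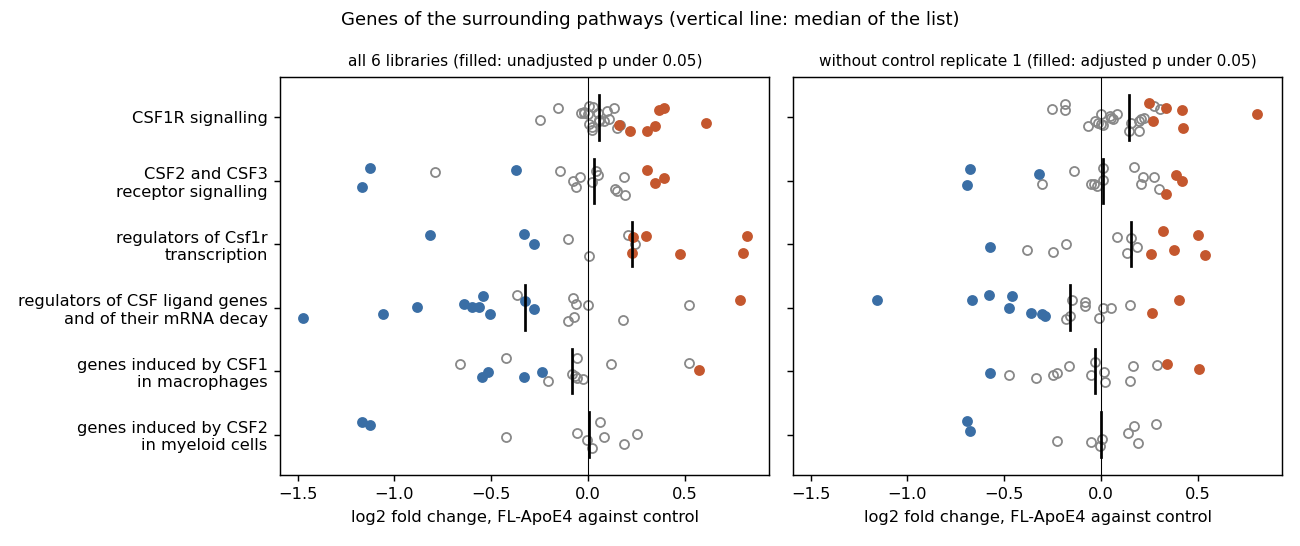
Log2 fold change of FL-ApoE4 against control (x axis) for each tested gene of 6 lists (rows), with all libraries on the left and without control replicate 1 on the right; filled points pass the p named in each panel, red higher and blue lower, and lines are list medians. Filled points for CSF1R signalling lie on the higher side in both panels, and those for regulators of the ligand genes lie mostly on the lower side.

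Monocyte and macrophage markers lay on the higher side with FL-ApoE4 beside the receptors. Of 8, 6 were tested, 5 were positive, and their sum was 160441 to 169503 normalised reads in control libraries and 178034 to 183865 in treated ones, with Ly6c2 listed at 0. The microglial markers summed to 35770 to 42107 and 41222 to 41778. Their part in the receptor differences was not tested. Sums for other cell types were low or overlapped. Lymphocyte markers summed to 47.1 to 61.9 and 57.5 to 81.2, with Cd3e and Gzmb listed at 0. Dendritic cell markers summed to 2035 to 2275 and 2222 to 2283, with Clec9a listed at 0. Within the dendritic sum Batf3 was higher in every treated library (597 to 857 in controls, 884 to 1030 with FL-ApoE4). Zbtb46 was lower in every one (1348 to 1379 in controls, 1162 to 1313 with FL-ApoE4). Markers of astrocytes, neurons and oligodendrocytes summed to 1170 to 1272 and 1229 to 1319, with Aqp4 listed at 0 and most of that sum from Mbp. Those of fibroblasts, endothelium and epithelium summed to 3015 to 4769 and 4026 to 4538, and most of that sum was Kdr.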

How the data were processed

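Total RNA was sequenced from directional libraries of 6 BV2 samples, per the labels' protocols. The submitters' processing notes name the build GRCm39 and, without roles or settings, HISAT2 2.2.1, FastQC 0.11.8, DESeq2 1.30.1 and HTSeq. The strand option of counting is not given in the sources used here, which leaves overlapping genes uncertain. The authors deposited a normalised signal per gene and library, counts divided by a factor for each library. Every value was a whole multiple of its column's smallest (tolerance 0.01, 100% of values), so whole reads were recovered. The authors' deposited table of statistics gives a mean signal, a log2 fold change, a Wald score, a p-value and an adjusted p-value; adjusted p-values exist for 12897 genes.

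Limma 3.58.1 in R 4.3.3 was applied to log2(value + 1), with a trended prior variance; this is a scale that understates changes of low genes. The test covered 14079 genes with a mean of at least 10, over all 6 libraries with group as the only term, two-sided, with Benjamini-Hochberg adjustment over all genes tested and a threshold of 0.05. Members were taken from this fit. The median log2 difference of all genes was 0.00, with the authors' scaling and with TMM. The recovered reads were tested with edgeR 4.0.16 and DESeq2 1.42.0. Transcript lengths came from GENCODE M21 (GRCm38, known for 92.0% of tested genes). Promoters came from RefSeq and were searched for 4 of the 8 members (Csf1, Csf2, Csf2ra and Csf3r). No entry was at hand for Csf3, Il34 and Csf2rb, and the Csf1r region is not reported here.

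Members and lists were chosen with earlier results of these data known. Named genes are the members and Csf2rb2, up to 4 genes of lowest p from each of 6 pathway lists, and the 3 genes nearest in profile to each member; a few list genes are not reported here. Spi1, Tyrobp, Syk, Adam17, Pik3ap1, Tyk2, Jak2, Stat5a, Stat5b, Stat3, Socs3, Nfkb1, Nfatc2 and Ccl2 were named after their values were seen or for their part in the pathway. Alternatives covered the pseudocount, filter, scaling, variance model, tool, leaving out each library, and a replicate block. Quality weights were planned, while the length and GC correction and the count tests without control replicate 1 were added after the data were seen.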

Additional observations from a re-analysis of the deposited data

How the results depend on the processing

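With all 6 libraries limma called 0 genes and 0 members, and pseudocounts of 0.5 and 5, a mean of at least 50, TMM, quantile and equal-total scaling, no trend, robust variance and edgeR also gave 0 of each. Without a filter 1 gene was called and 0 members. Library quality weights gave 1551 genes and 4 members, DESeq2 390 and 2, edgeR without control replicate 1 gave 691 and 2, DESeq2 without it 959 and 4, and the length and GC correction 23 genes and 0 members. Leaving out 1 library gave 0 to 651 genes and 0 to 2 members, with both highest values without control replicate 1; the cause was not tested. The 4 members with groups that do not overlap kept this under TMM, quantile and equal-total scaling and after the length and GC correction. Pseudocounts, filters and leaving out a library cannot make separate groups overlap, so those settings could not have changed it. Csf2rb joined them without control replicate 1, without FL-ApoE4 replicate 3 and after the length and GC correction. The count of such members was 4 to 5 when 1 library was left out.

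Csf1r, Csf2ra, Csf3r, Csf2rb and Csf3 kept their direction in all 22 alternatives. The ranges were 0.19 to 0.26, 0.10 to 0.19, 0.36 to 0.45, -0.16 to -0.05 and -2.76 to -1.16. Il34 ran from -0.17 to 0.38 when 1 library was left out and was negative without control replicate 2 (-0.04) and FL-ApoE4 replicate 1 (-0.17). Same-numbered libraries are linked in the labels by the number alone. Their deviations from the group means correlated at 0.132, 0.0679 and -0.026 across genes. Control replicates 1 and 2 correlated best with their own number, and control replicate 3 with FL-ApoE4 replicate 2 (0.165). Deviations of 3 libraries per group cannot decide whether samples were paired. With a replicate block 0 genes and 0 members were called. Few reads limit Il34. Csf3 also has few reads, but over all libraries the spread of its controls (SD 250 normalised reads) was larger than the counting error of control replicate 1 (SD 23.5). Its SE fell from 0.69 to 0.18 without that library. For the other members the spread between libraries sets the precision.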
